A study of Homo sapiens with 6 samples.

Results

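Prostaglandins are lipid signals made from arachidonic acid that a cell releases and then senses on itself or its neighbours. A phospholipase frees arachidonic acid from membranes, a cyclooxygenase turns it into prostaglandin H2, and a terminal synthase makes prostaglandin E2 or prostacyclin from that, while a dehydrogenase in the cytosol inactivates the product. In gliomas prostaglandin E2 is best known for dampening immune cells and for acting on cAMP-coupled receptors. The gene set described here holds 10 members, chosen by symbol among the 54628 gene symbols listed: PLA2G4A, PTGS1, PTGS2, PTGES, PTGES2, PTGES3, PTGIS, PTGER2, PTGER4 and HPGD. All 10 were found.

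The data are 6 libraries from U87, a long-established cell line grown from a human glioblastoma. The cells were taken from a co-culture on a flow sorter, and all are labelled as cycling. In 3 libraries the cells had received mitochondria (received cells, n = 3), and in 3 they had not (not-received cells, n = 3). The series title names astrocytes as the source of the mitochondria. No label gives a drug, a genetic change, a culture time or the species of the astrocytes, and none says that replicates came from separate cultures, so the tests see only the spread among these libraries.

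Total counts ran from 17879552 to 21314558 in received libraries and from 18549585 to 46392491 in not-received libraries. Not-received replicate 2 stood apart: it was the deepest library, and without it the coefficient of variation between replicates was 5.37% instead of 9.47%. The genes CDKN2A, CDKN2B and MTAP, known to be deleted in U87, had 0 counts in every library. Of 9 astrocyte markers, AQP4, ALDH1L1 and GJB6 were at 0 in every library, and the list summed to 128 to 140 CPM (counts scaled to library depth) in received and 144 to 154 CPM in not-received libraries. Microglia and macrophage markers summed to 19.9 to 22.2 against 20 to 21.1 CPM, with 4 of 7 at 0 and nearly all of the sum from CSF1R, and endothelial markers to 18.2 to 20.3 against 13.9 to 18.4 CPM, with 0 of 5 at 0 in every library and most of the sum from KDR. The astrocyte sum came almost wholly from ALDOC, GLUL and SLC1A3. The part of other cells in the results was not tested.

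No member of the set was called in received cells: 0 of the 8 tested members were higher and 0 lower by the quasi-likelihood test of edgeR (adjusted p under 0.05), in a comparison that called 18.9% of the 14100 genes tested. The fitted values lay on one side, with 8 of 8 log2 fold changes above 0, from 0.06 to 0.39. Of all 14100 genes tested, 7025 were above 0. The members' median was 0.24 where the median of all genes tested was 0.00. The 95% intervals of PTGES3 and HPGD included 0, and each turned negative with a particular library left out. The members were chosen with earlier results of these data known, and their lean as a set was not tested. At an unadjusted p under 0.05, 6 members were higher and 0 lower, against 16.6% of all genes tested that were higher at that level. In 5 members every received library lay above every not-received library, which held for 19.5% of all genes tested. DESeq2 also called 0 members. The count was 1 with limma-voom (PLA2G4A), 2 with a filter of at least 1 CPM in 3 libraries (PTGER4 and PLA2G4A) and 4 with scaling by library size alone (PTGES2, PTGER2, PTGER4 and PLA2G4A). It was 1 without received replicate 3 (PTGS2), 1 without not-received replicate 1 (PTGES) and 2 without not-received replicate 3 (PTGES2 and PTGER4). In RNA from sorted cells, more cells that transcribe a gene and more RNA of it per cell cannot be told apart.

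**Figure D1:**
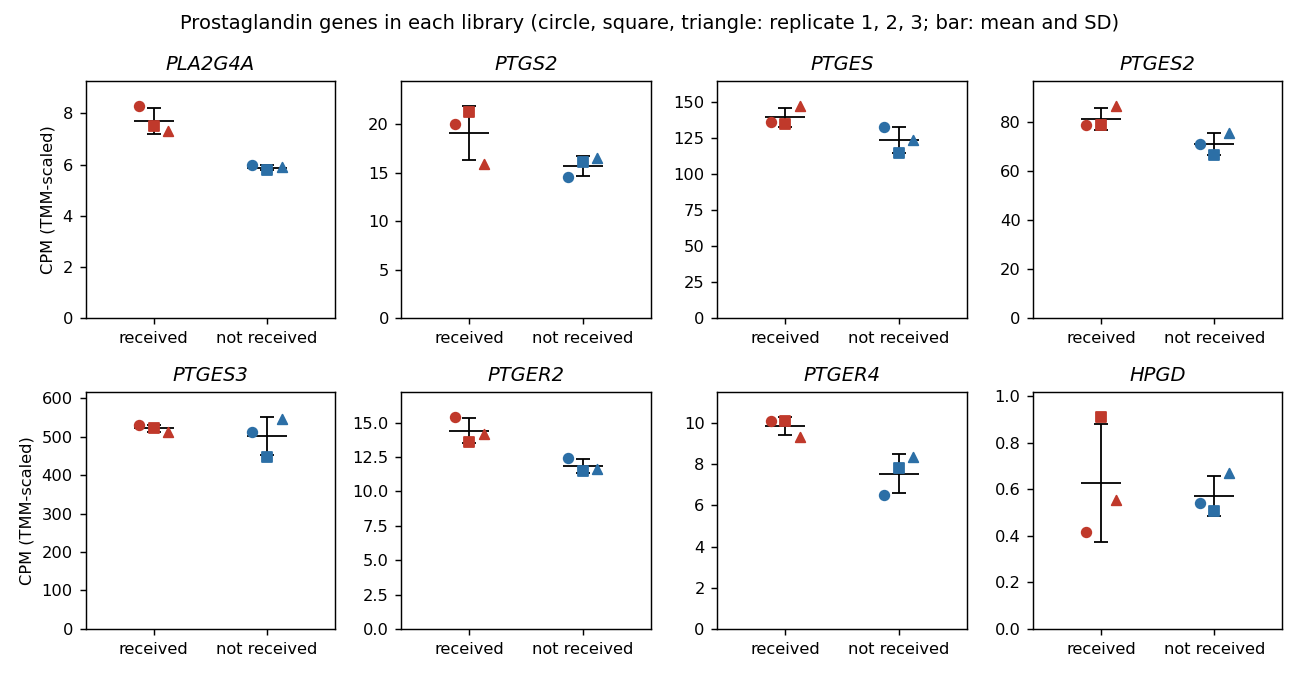
Level of each of the 8 tested genes in CPM (vertical axis, from 0) in received and not-received libraries, with 1 point per library and the mean and SD of 3 libraries. PLA2G4A, PTGES, PTGES2, PTGER2 and PTGER4 show no overlap between the groups, while PTGS2, PTGES3 and HPGD do.

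The entry step of the pathway had one of the higher fitted differences of the set, close to that of PTGER4. PLA2G4A encodes the cytosolic phospholipase A2 that releases arachidonic acid from membranes. It stood at 8.27, 7.5 and 7.33 CPM in received libraries and at 5.97, 5.78 and 5.89 CPM in not-received libraries, or 178, 140 and 132 counts against 110, 263 and 123. The groups did not overlap, and the not-received libraries lay close together. Its level was 1.31-fold that of not-received cells (log2 fold change 0.39 ± 0.13 SE, 95% interval 0.11 to 0.68, edgeR adjusted p = 0.0548). Over the alternatives that adjusted p ran from 0.0373 to 0.186.

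PTGS2 encodes COX2, the inducible cyclooxygenase and the member that most responds to inflammatory signals. Its control region is printed because the gene is the regulated step of the pathway, and because a divergent RNA gene starts beside it. The RefSeq promoter (GRCh38.p14, minus strand, chr1:186680374-186680673, 250 bases before to 50 after the start, 5′ to 3′) has in capitals every match, on either strand, to 4 motifs chosen with knowledge of this promoter.
PTGS2: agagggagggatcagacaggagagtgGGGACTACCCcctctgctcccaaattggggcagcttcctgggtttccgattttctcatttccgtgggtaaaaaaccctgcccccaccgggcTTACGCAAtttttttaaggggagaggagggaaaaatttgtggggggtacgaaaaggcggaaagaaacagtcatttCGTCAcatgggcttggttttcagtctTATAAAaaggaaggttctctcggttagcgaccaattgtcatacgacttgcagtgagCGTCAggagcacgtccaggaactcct

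From the far end, the capitals mark GGGNNNNCC, a loose form of the NF-kB site, in 2 overlapping matches that begin at -224 and -223 (the first base of the gene is 1), then a C/EBP-type match to TTGCNNAA at -133. Nearer the start are TGACG, the half-site of the cAMP response element, at -58 and again at 25, and the TATA box TATAAA at -32. Of 35116 promoters of the same length, 52.8% held the first of these motifs, 10.5% the second, 24.6% the third and 11.5% the fourth. Among the 9 members with a promoter in the table, only PTGS2 held TATAAA or the C/EBP-type motif. TGACG also stood in those of PTGES3, PTGER2 and HPGD, and the NF-kB-like letters in all but those of HPGD and PLA2G4A. A match describes letters and is no evidence of binding.

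PTGS2 mRNA had 431, 395 and 286 counts in received libraries and 268, 731 and 345 in not-received libraries. Scaled for depth this was 20, 21.2 and 15.9 CPM in received against 14.5, 16.1 and 16.5 CPM in not-received cells. Received replicates 1 and 2 were above all not-received libraries, and received replicate 3 fell inside their range, so the groups overlapped. The means were 19 ± 2.78 and 15.7 ± 1.04 CPM (SD, n = 3 each), a log2 fold change of 0.27 ± 0.11 SE (95% interval 0.04 to 0.51) that was not called (edgeR adjusted p = 0.101). Without received replicate 3 the value was 0.39 (edgeR adjusted p = 0.0382), and over the other alternatives the adjusted p went up to 0.343. The upper bound of the interval is a 1.43-fold difference.

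PACERR, a long noncoding RNA known in human cells to bind the p50 subunit of NF-kB next to PTGS2, starts 231 bases upstream of PTGS2 on the other strand, and the RefSeq gene bodies do not overlap. It was chosen after its values were seen. It had 16, 18 and 12 counts in received and 4, 20 and 6 counts in not-received libraries, or 0.743, 0.964 and 0.666 CPM against 0.217, 0.44 and 0.287 CPM. Every received library was above every not-received library. PACERR rose in received cells (log2 fold change 1.22 ± 0.40 SE, edgeR adjusted p = 0.0472). At so few counts the call was narrow: DESeq2 gave an adjusted p of 0.188, and edgeR gave 0.102 without a low-count filter. Without received replicate 1, 2 or 3 the edgeR adjusted p was 0.108, 0.18 or 0.0914, and without not-received replicate 1 or 3 it was 0.118 or 0.104. The labels do not say whether the reads keep their strand.

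A further feature of PTGS2 lies after its stop codon. AUUUA pentamers in the 3′ untranslated region (UTR) are the sites at which proteins such as tristetraprolin shorten the life of inflammatory mRNAs. In the GENCODE 29 principal transcript the PTGS2 3′ UTR of 2562 bases holds 22 copies, a number that 1.85% of 13659 genes reach. That share makes no allowance for the length of the UTR. One stretch of 30 bases, from base 7 to base 36 after the stop codon, holds 3 of them in overlapping form and is shown with those copies in capitals.
PTGS2 3′ UTR: aatgatcatATTTATTTATTTAtatgaacc

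Of the other members, those with such a transcript held fewer, with 9 in PTGER4, 6 in PTGES3, 5 each in PTGER2 and HPGD, 4 in PLA2G4A, 2 in PTGIS, 1 in PTGES and 0 in PTGES2. Per kilobase of 3′ UTR, PTGS2 held 8.59 copies, close to PLA2G4A at 8.46, where the 4 copies lie in 473 bases. PTGER4 followed at 6.63 and PTGES3 at 5.28, and the remaining members with such a transcript were lower. These numbers describe the annotated transcripts, and the 3′ ends used in these cells were not measured.

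Hardly any read came from the other cyclooxygenase. PTGS1, the constitutive enzyme COX1, had 1, 1 and 0 counts in received and 0 counts in every not-received library. Both groups were at or under the floor of 3 counts, which is 0.139 to 0.167 CPM in received and 0.0659 to 0.163 CPM in not-received libraries, so no fold is given. PTGIS, the prostacyclin synthase, had 0 counts in received libraries and 0, 2 and 0 in not-received libraries. Neither gene passed the filter on low counts, and their levels were not detectable at this depth.

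**Figure D2:**
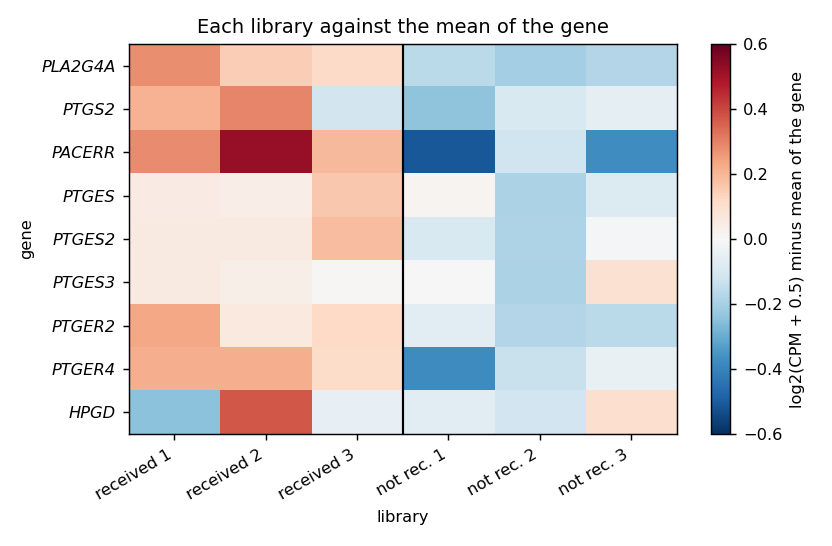
Colour gives the log2(CPM + 0.5) of each gene (rows) in each library (columns) minus the mean of that gene over 6 libraries, with received libraries left of the line. Received replicate 3 is on the low side for PTGS2 and on the high side for PTGES and PTGES2, and PACERR is shown beside PTGS2 for comparison.

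Prostaglandin E2 synthases were, per transcript length, the most abundant mRNAs of the set. PTGES, the inducible membrane synthase that pairs with COX2, stood at 136, 135 and 147 CPM in received and 133, 115 and 124 CPM in not-received libraries. The groups were separated by a narrow margin, between received replicate 2 and not-received replicate 1. The log2 fold change was 0.16 ± 0.07 SE (95% interval 0.02 to 0.31, edgeR adjusted p = 0.1), and 0.22 (edgeR adjusted p = 0.0463) without not-received replicate 1. Over all alternatives it ran from 0.11, without not-received replicate 2, to that value, and the adjusted p from 0.0463 to 0.312.

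PTGES2, a membrane-bound synthase regarded as constitutive, had 78.7, 78.7 and 86.3 CPM in received against 71.1, 66.6 and 75.3 CPM in not-received libraries. These groups did not overlap either, with a log2 fold change of 0.20 ± 0.07 SE (95% interval 0.05 to 0.34, edgeR adjusted p = 0.063). Without not-received replicate 3 it was 0.24 (edgeR adjusted p = 0.0411), and without received replicate 3 it was 0.15 (edgeR adjusted p = 0.237). Over all alternatives the adjusted p ran from 0.0307 to 0.237. The neighbouring noncoding gene PTGES2-AS1, chosen after its values were seen, had 13, 14 and 14 counts in received and 5, 18 and 6 in not-received libraries, with a log2 fold change of 1.08 ± 0.39 SE (edgeR adjusted p = 0.0668).

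PTGES3, the cytosolic synthase also known as the HSP90 co-chaperone p23, stood at 531, 524 and 513 CPM in received and 512, 448 and 545 CPM in not-received libraries. The received libraries lay inside the range of the others. Its log2 fold change was 0.06 ± 0.07 SE (95% interval -0.09 to 0.21, edgeR adjusted p = 0.582), and it was -0.02 without not-received replicate 2, the lowest library for this gene. The processed pseudogene PTGES3P1, chosen after its values were seen, was highest in that library, with 6.37 CPM there, 1.74 and 1.24 CPM in the others of its group and 1.35, 1.18 and 0.722 CPM in received libraries. The log2 fold change of PTGES3P1 was -1.57 ± 0.74 SE (edgeR adjusted p = 0.205), and -0.44 without not-received replicate 2. PTGES3P1 was called lower with DESeq2 (DESeq2 adjusted p = 0.0218) and with a replicate block (edgeR adjusted p = 0.0405). The sources used here do not give how reads shared by a gene and its pseudogene were counted.

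Both cAMP-raising receptors for prostaglandin E2 were present, and their values leaned the same way. PTGER2, which encodes EP2, stood at 15.4, 13.6 and 14.2 CPM in received and 12.4, 11.5 and 11.6 CPM in not-received libraries. PTGER4, which encodes EP4, stood at 10.1, 10.1 and 9.33 CPM in received and 6.51, 7.8 and 8.33 CPM in not-received libraries. For both receptors all received libraries were above all not-received libraries. The log2 fold change was 0.28 ± 0.10 SE for PTGER2 (95% interval 0.07 to 0.50, edgeR adjusted p = 0.0669) and 0.38 ± 0.13 SE for PTGER4 (95% interval 0.10 to 0.65, edgeR adjusted p = 0.0531). Over the alternatives the adjusted p ran from 0.0408 to 0.231 for PTGER2 and from 0.0342 to 0.152 for PTGER4.

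HPGD, the 15-hydroxyprostaglandin dehydrogenase that inactivates prostaglandin E2, was scarce. It had 9, 17 and 10 counts in received and 10, 23 and 14 in not-received libraries, or 0.418, 0.911 and 0.555 CPM against 0.543, 0.506 and 0.67 CPM. The highest and the lowest library were both received ones. Its log2 fold change was 0.14 ± 0.39 SE (95% interval -0.70 to 0.98, edgeR adjusted p = 0.833), and -0.22 without received replicate 2, so at this depth neither direction was detectable.

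**Figure D3:**
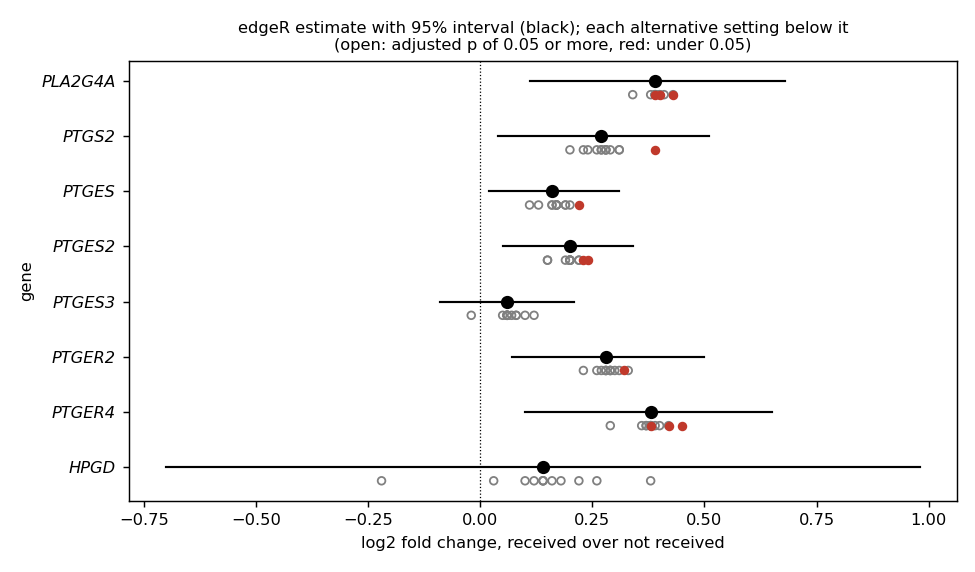
Log2 fold change of received over not-received cells (horizontal axis) for the 8 tested genes, with the edgeR estimate and its 95% interval in black and 1 point per alternative setting below it, red where the adjusted p was under 0.05. All 8 estimates lie above 0, the intervals of PTGES3 and HPGD include 0, and red points appear for the other 6 genes under 1 to 3 settings each.

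Ratios of 2 members within a library do not depend on how libraries are scaled, and 3 were compared. The log2 ratio of PTGS2 to HPGD counts, synthesis over breakdown, was 5.51, 4.5 and 4.77 in received and 4.68, 4.96 and 4.57 in not-received libraries, a difference of 0.19. The log2 ratio of PTGES to PTGES2, inducible over constitutive synthase, averaged 0.77 ± 0.01 in received cells and 0.81 ± 0.09 in not-received cells (SD, n = 3 each). That of PTGER4 to PTGER2 averaged -0.55 ± 0.10 in received cells and -0.66 ± 0.24 in not-received cells (SD, n = 3 each). Each difference was smaller than the larger of its groups' SDs, although those of PTGES to PTGES2 (-0.03) and PTGER4 to PTGER2 (0.11) exceeded the SD of received cells, and none passed the test (exact two-sided permutation p = 0.7, 0.8 and 0.6, adjusted p = 0.8 for each, where 3 against 3 cannot go under 0.1). A ratio of PTGS2 to PTGS1 was planned and is not given, since PTGS1 was at the floor.

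Per kilobase of GENCODE 29 principal transcript, the order of levels was the same in both groups. PTGES3 came first, at 272 ± 4.73 CPM per kilobase in received and 261 ± 25.7 in not-received cells, followed by PTGES at 78.5 ± 3.75 and 69.9 ± 5.07, and PTGES2 at 34.8 ± 1.88 and 30.5 ± 1.87 (SD, n = 3 each). PTGER2 followed at 6.04 ± 0.385 and 4.97 ± 0.207, above PTGS2 at 4.22 ± 0.616 and 3.48 ± 0.234, with no overlap between the genes in either group. PLA2G4A (2.68 ± 0.174 and 2.05 ± 0.0332) and PTGER4 (2.56 ± 0.116 and 1.96 ± 0.243) overlapped in both groups, and HPGD was last at 0.207 ± 0.0841 and 0.189 ± 0.0284. The authors' annotation is not given, so these lengths are approximate.

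IL1B and IL1R1 were chosen after their values were seen. IL1B, the cytokine best known for inducing PTGS2, rose 7.47-fold, with 161 ± 11.5 CPM in received and 21.4 ± 5.74 CPM in not-received cells (SD, n = 3 each; edgeR adjusted p = 4.08e-04). Its receptor gene IL1R1 stood at 60.7 ± 2.22 and 59.2 ± 7.1 CPM (log2 fold change 0.03 ± 0.08 SE, edgeR adjusted p = 0.828). The PTGS2 profile over the 6 libraries was most like those of FST, the activin antagonist follistatin, MAP3K9-DT, a noncoding RNA gene, PIGV, an enzyme of GPI anchor synthesis, L3MBTL3, a chromatin protein, and MIB1, a ubiquitin ligase of Notch ligands. Likeness was the distance between mean-centred log2(CPM + 0.5) profiles over 6 libraries and ran from 0.123 for FST to 0.132 for MIB1 among 11050 candidate genes.

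Beyond the members, 8 lists of related genes held 80 further genes, of which 54 were tested, 7 rose and 8 fell, and the median log2 fold change was -0.01. The share of these genes called, in either direction, was above the 18.9% of all genes tested. Of all 14100 genes tested, 1298 rose and 1364 fell, and the small counts of single lists given below are descriptions. The lists were chosen with earlier results of these data known, and the difference in share was not tested. The lists went both ways, and the count of 8 that fell was 3, 1 or 1 without received replicate 1, 2 or 3 and 4 with scaling by library size alone.

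Genes of arachidonate release and supply split. Of 6 tested genes of release 0 rose and 1 fell: PLA2G15, a lysosomal phospholipase, stood at 51 ± 1.27 CPM in received and 61.4 ± 3.57 CPM in not-received cells (log2 fold change -0.27 ± 0.07 SE, edgeR adjusted p = 0.0168), a call lost without any 1 received library (edgeR adjusted p = 0.0609 to 0.0968). Annexin A1, an inhibitor of phospholipase A2 encoded by ANXA1 and chosen after its values were seen, stood at 1160 ± 3.69 and 1140 ± 64 CPM. Of 8 genes of supply and re-uptake 2 rose and 1 fell. FADS2, the delta-6 desaturase on the route to arachidonic acid, fell to 31.2, 28.9 and 26.4 CPM in received libraries, against 43.6, 46.1 and 52.1 CPM in not-received libraries (log2 fold change -0.71 ± 0.09 SE, edgeR adjusted p = 1.28e-04). This was called under every alternative run, with values from -0.77 to -0.64. ACSL1 rose (0.32 ± 0.07 SE, edgeR adjusted p = 0.00492), as did ACSL4 (0.22 ± 0.06 SE, edgeR adjusted p = 0.0251), acyl-CoA synthetases of which ACSL4 prefers arachidonic acid. The ACSL4 call was lost without any 1 received library or not-received replicate 1 (edgeR adjusted p = 0.0766 to 0.105).

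Among 4 further tested prostanoid synthases, 0 rose and 1 fell. AKR1C3, which makes prostaglandin F and has close paralogs that can share its reads, stood at 27 ± 1.95 CPM in received and 37 ± 5.75 CPM in not-received cells (log2 fold change -0.45 ± 0.11 SE, edgeR adjusted p = 0.014). Its call was lost without any 1 received library (edgeR adjusted p = 0.0513 to 0.0823). PTGDS, a prostaglandin D synthase, had 0 counts in all libraries. Of 7 further prostanoid receptors only TBXA2R, the thromboxane receptor, was tested, at 10.7 ± 1.11 and 10.3 ± 1.59 CPM (log2 fold change 0.05 ± 0.13 SE, edgeR adjusted p = 0.807), and it was -0.03 without received replicate 3 or not-received replicate 2.

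Of 5 further tested genes of prostaglandin transport and breakdown, 1 rose and 0 fell. PTGR2, a reductase that acts on the keto product of HPGD, stood at 17.2, 16.8 and 15.6 CPM in received libraries and at 10.6, 10.2 and 10.8 CPM in not-received libraries. The groups were well apart, and PTGR2 rose 1.57-fold (log2 fold change 0.65 ± 0.10 SE, edgeR adjusted p = 5.73e-04), called under every alternative run with values from 0.63 to 0.70. Of 3 tested lipoxygenase and leukotriene genes 1 rose and 1 fell. LTA4H, the leukotriene A4 hydrolase, rose 1.32-fold, with 33.8 ± 2.51 CPM in received and 25.7 ± 2.32 CPM in not-received cells (edgeR adjusted p = 0.00653). MGST3, a microsomal glutathione transferase, had a log2 fold change of -0.21 ± 0.07 SE (edgeR adjusted p = 0.0489), and this call was lost in 7 of 13 alternatives, namely all 3 without 1 received library, those without not-received replicate 1 or 3, library size alone and limma-voom (highest edgeR adjusted p = 0.163). ALOX5, the enzyme at the head of leukotriene synthesis, had 0 counts in all libraries.

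Proteins that bind AU-rich RNA had 0 of 8 tested genes that rose and 1 that fell, where 1298 of all 14100 rose and 1364 fell. ZFP36, which encodes tristetraprolin, stood at 16.9, 14.9 and 14 CPM in received and 21.8, 21.3 and 18 CPM in not-received libraries. It fell by 0.42 on the log2 scale (SE 0.10, edgeR adjusted p = 0.0138), a call lost without received replicate 2 or 3 (edgeR adjusted p = 0.0727 and 0.0832). The stability of PTGS2 mRNA was not measured.

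The cAMP and CREB list had 3 of 19 genes that rose and 3 that fell. EP2 and EP4 raise cAMP, but cAMP was not measured, and a link of these genes to either receptor was not tested. The cAMP phosphodiesterase genes PDE4D and PDE4B rose. PDE4D stood at 15.2 ± 0.498 CPM in received and 9.47 ± 0.898 CPM in not-received cells (log2 fold change 0.68 ± 0.11 SE, edgeR adjusted p = 8.14e-04), and PDE4B at 19.3 ± 1.49 and 12.5 ± 0.801 CPM (0.62 ± 0.10 SE, edgeR adjusted p = 8.78e-04). PER1, a clock gene with a cAMP-responsive promoter, rose as well (0.42 ± 0.08 SE, edgeR adjusted p = 0.00391). These 3 were called under every alternative run. Other genes of the list, named after their values were seen, were not called (edgeR adjusted p from 0.149 to 0.928). Their log2 fold changes were 0.05 for NR4A1, 0.78 for NR4A2, 0.37 for NR4A3, 0.43 for SIK1, 0.22 for CREM and -0.25 for DUSP1. ADCY9, an adenylyl cyclase gene, had a log2 fold change of -0.40 ± 0.12 SE (edgeR adjusted p = 0.0374), a call lost in 7 of 13 alternatives, namely any 1 received library left out, not-received replicate 2 or 3 left out, library size alone and DESeq2 (highest edgeR adjusted p = 0.151). The list's other decreases, picked out after seeing the values, were ADCY6 (-0.36 ± 0.12 SE) and CRTC2, a CREB coactivator (-0.24 ± 0.07 SE). Scaling by library size alone ended both calls, as did leaving out any 1 received library (edgeR adjusted p up to 0.177 and 0.153). That of ADCY6 was also lost with DESeq2, with limma-voom and without not-received replicate 2, where its log2 fold change was -0.19, and that of CRTC2 without not-received replicate 1.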

How the data were processed

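The authors deposited raw counts per gene symbol, 1 file per library, whole numbers with no normalization. Per the labels' protocols, mRNA was captured on poly-T beads, primed with random hexamers and read as 150 bp pairs on an Illumina NovaSeq. DESeq and R 3.6.1 are listed, with no role, in the submitters' processing notes. The sources used here do not give the aligner, counting program, build, annotation or strandedness.

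Genes were filtered with filterByExpr (14100 of 28833 genes with a count), scaled with TMM factors and tested with the robust quasi-likelihood test of edgeR 4.0.16 (R 4.3.3), with no term but the group. Benjamini-Hochberg adjustment ran over every gene tested, and a call is an adjusted p under 0.05. CPM use the TMM factors. The SE of a log2 fold change is its size over the root of F, and 95% intervals use the t quantile of edgeR's degrees of freedom. Within-library ratios of counts, with 0.5 added, were compared by exact permutation. Replicates differed by more than sampling noise (chi-square per gene from 3.23 to 18.5), so none was merged. Floors of 3 counts take in counting error alone, as PCR copies of a molecule cannot be recognised here.

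Alternatives were edgeR's RLE factors, library size alone, DESeq2 1.42.0, limma-voom (limma 3.58.1), no filter, 1 CPM or more in 3 libraries as the filter, a replicate block, a pseudocount of 5 for ratios, and leaving out each library. The steps were run on simulated counts, with a minimum recovery required only at the largest simulated difference. Recovery of differences as small as those of the members is not given. Members and lists were chosen with earlier results of these data known. All members are named. From each of 8 lists up to 4 called genes are named, those with the largest absolute log2 fold change where the average log2 CPM is 1 or more, or the 1 with the smallest p. For genes like PTGS2, 5 are given, without LOC, clone or pseudogene names. PTGR3 was found under its older symbol. RefSeq (GRCh38.p14) gave the promoter and gene classes.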

Additional observations from a re-analysis of the deposited data

How the results depend on the processing

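Over 13 alternatives, 6 of the 8 tested members (PLA2G4A, PTGS2, PTGES, PTGES2, PTGER2 and PTGER4) kept a log2 fold change above 0. PTGES3 was -0.02 without not-received replicate 2 and HPGD -0.22 without received replicate 2, and with 1 library left out they reached 0.12 and 0.38. Of genes outside the set, TBXA2R was -0.03 without received replicate 3 or not-received replicate 2, and IL1R1 -0.05 without not-received replicate 1, with highest values of 0.18 and 0.13. The members called higher were 0 in the main test, 4 with library size alone, 1 with limma-voom, 2 with at least 1 CPM in 3 libraries, and 0 to 2 with 1 library left out. No member was called lower in any alternative run. With library size alone, 1683 genes were called higher and 1110 lower, where the main test gave 1298 and 1364, and the median log2 fold change of all genes was 0.04. Without a filter 2084 genes were lower. With 1 library left out, 604 to 1356 genes were higher and 691 to 1579 lower. Further genes of the pathway called lower were 8, but 4 with library size alone and 1 to 8 with 1 library left out. With 1 library left out, the differences in log2 ratio were -0.10 to 0.40 for PTGS2 to HPGD, -0.07 to 0.02 for PTGES to PTGES2 and -0.02 to 0.20 for PTGER4 to PTGER2. The alternatives planned for PTGS2 to PTGS1 were not run, as PTGS1 was at the floor. The cause of these shifts was not tested. The labels do not say whether samples with the same replicate number are paired. Their deviations from the group means had correlations of -0.20, -0.07 and 0.05, which with 3 libraries per group cannot settle it. With the replicate block 0 members, 1252 genes higher and 1384 lower were called, and no call of a member ended or began. At this depth PTGS1 and PTGIS stayed under the floor, and whether they are expressed at all was not tested. The interval of HPGD spans a 0.614-fold to 1.98-fold difference.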
